A study of Mus musculus with 2 samples.

Results

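The tuft chemosensing and effector genes are 10 genes of the tuft cell, the chemosensory cell of the intestinal epithelium. They were taken by symbol from the deposited gene list, and all 10 were found among its 55401 genes. They are Pou2f3, Sucnr1, Gnat3, Plcb2, Trpm5, Il25, Alox5, Alox5ap, Ptgs1 and Dclk1. Their RNA and the open chromatin at their promoters were compared between tuft-like cells and every other cell class of the same animal. The animal was a single mouse, 55 weeks old, with a mutation load of 73% at TrnA, which encodes the alanine tRNA of mitochondria, per the labels. The tissue was small intestine. Epithelial cells were stained for CD45, CD31, TER-119 and CD326 and sorted by flow cytometry with gates that are not stated, then fixed with formaldehyde. RNA and open chromatin (ATAC) were read from the same cells, in 1 library each, with the 10x Multiome kit. No second animal was analysed here, so the values describe cell classes of 1 mutant mouse, with no replicate, no test between animals and no measure of the mutation's effect. The series title names acute colitis, and whether this animal had it is not stated.

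Tuft cells sense luminal compounds through G protein-coupled receptors, such as the succinate receptor Sucnr1, and a cascade shared with taste cells. In it the G protein alpha subunit gustducin (Gnat3) and phospholipase C (Plcb2) raise intracellular calcium, which opens the cation channel Trpm5. Activated tuft cells release the cytokine IL-25, which drives innate lymphoid cells in type 2 immunity, and lipid mediators made by Alox5 with its partner protein Alox5ap (leukotrienes) and by Ptgs1 (prostaglandins). Pou2f3 is the transcription factor on which the lineage depends, and the kinase Dclk1 is its customary marker in the mouse intestine.

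After filters, 9872 of 12363 barcodes were kept, with a median of 5591 UMIs (unique molecular identifiers, each 1 captured RNA molecule), 1547 of them nuclear-encoded. Cells were clustered on RNA with the 10 genes and 86 related genes held out, so that no class was defined by the genes described. One cluster of 99 cells was named tuft-like (1.00% of kept cells, 95% exact binomial interval 0.816 to 1.22%). All 16 tuft markers used for naming were detected in it, at a summed 15106 UMIs per 1000000 nuclear-encoded UMIs against 65.3 to 166 in the other epithelial classes and 1828 in lymphocyte-like cells. The others were 3772 enterocyte-like, 2141 crypt progenitor-like, 1486 goblet-like, 286 Paneth-like, 215 enteroendocrine-like and 27 lymphocyte-like cells, and 1846 cells stayed unnamed. RNA levels below are UMIs summed over a class per 1000000 nuclear-encoded UMIs of that class, and chromatin levels are fragments per 1000000 fragments in peaks. Every interval is an exact 95% interval for counting error only, since cells of 1 animal are not replicates.

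Promoter sequences of 6 of the genes are given first, because their chromatin or motifs are described below, as the 250 bases before the RefSeq start on build GRCm38.p6, the assembly of mm10. RefSeq windows were found for 7 of the 10 genes and not for Pou2f3, Il25 and Alox5ap. The windows of Alox5, Ptgs1 and Trpm5 lay wholly inside an accessible peak, and that of the upstream Dclk1 start lay partly inside one, with 141 of 250 bases. No peak touched the windows of Sucnr1 and Plcb2. Capitals mark matches to 6 short motifs searched on both strands.
Alox5 (chr6:116461179-116461428, minus strand): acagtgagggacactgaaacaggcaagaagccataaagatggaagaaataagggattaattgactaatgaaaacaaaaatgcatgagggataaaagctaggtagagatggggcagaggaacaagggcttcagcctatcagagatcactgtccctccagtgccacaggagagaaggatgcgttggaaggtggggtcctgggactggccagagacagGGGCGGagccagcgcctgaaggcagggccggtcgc
Ptgs1 (chr2:36230176-36230425, plus strand): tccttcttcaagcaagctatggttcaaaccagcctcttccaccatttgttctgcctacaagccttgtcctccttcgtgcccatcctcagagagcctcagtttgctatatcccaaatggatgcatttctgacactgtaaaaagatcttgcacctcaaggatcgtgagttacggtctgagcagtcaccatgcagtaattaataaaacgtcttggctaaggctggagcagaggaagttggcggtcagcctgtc
Trpm5 (chr7:143094643-143094892, minus strand): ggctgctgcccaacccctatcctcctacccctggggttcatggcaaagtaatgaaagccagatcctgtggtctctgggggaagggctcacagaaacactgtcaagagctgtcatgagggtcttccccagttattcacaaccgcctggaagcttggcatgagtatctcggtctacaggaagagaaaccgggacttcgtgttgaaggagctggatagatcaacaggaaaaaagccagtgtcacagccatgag
Dclk1, upstream start (chr3:55242114-55242363, plus strand): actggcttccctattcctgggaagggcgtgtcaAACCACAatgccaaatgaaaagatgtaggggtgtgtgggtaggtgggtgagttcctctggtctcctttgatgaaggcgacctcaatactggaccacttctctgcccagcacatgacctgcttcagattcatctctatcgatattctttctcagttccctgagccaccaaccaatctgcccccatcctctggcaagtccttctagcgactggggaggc
Plcb2 (chr2:118728439-118728688, minus strand): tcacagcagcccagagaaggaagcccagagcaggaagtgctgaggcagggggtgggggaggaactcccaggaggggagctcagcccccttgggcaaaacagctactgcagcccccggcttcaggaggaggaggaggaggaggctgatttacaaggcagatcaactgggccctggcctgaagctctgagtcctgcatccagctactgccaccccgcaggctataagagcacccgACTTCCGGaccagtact
Sucnr1 (chr3:60081619-60081868, plus strand): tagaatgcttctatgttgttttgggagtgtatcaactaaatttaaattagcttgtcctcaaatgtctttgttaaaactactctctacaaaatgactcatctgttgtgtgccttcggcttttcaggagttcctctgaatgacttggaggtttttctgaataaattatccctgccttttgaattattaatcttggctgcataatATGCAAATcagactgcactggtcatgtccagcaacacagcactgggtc
The octamer ATGCAAAT, bound by POU proteins, occurred once among the 8 member windows, beginning 48 bases before the Sucnr1 start, and in 1.60% of all 32851 RefSeq windows. The RUNX motif AACCACA began 217 bases before the upstream Dclk1 start (4.40% of all windows). The ETS motif CCGGAAGT, read on the other strand, began 17 bases before the Plcb2 start (2.88%). The GC box GGGCGG began 35 bases before the Alox5 start (32.7%). The TATA motif TATAAA (12.4%) and the E-box CACGTG (6.02%) had no match in the 8 windows. These are letter matches in short windows and show no binding.

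In tuft-like cells, RNA of 8 of the 10 genes was higher than in all other kept cells together. A call needed at least 20 UMIs over both sides, a ratio of at least 1.5-fold and an interval that excluded no change. Pou2f3, Trpm5, Alox5ap, Ptgs1 and Dclk1 had at least 20 UMIs in the other cells alone. Gnat3, Plcb2 and Alox5, with 2, 3 and 9 UMIs there, passed only through the tuft-like cells, so that their calls followed from the minimum and their values are a description. Of all 14938 nuclear genes that passed the same minimum, 7.87% were higher and 8.79% lower by this rule, and 8.27% were higher among genes with at least as many UMIs as the least abundant of the 8. The median log2 ratio over all genes tested was 0.19. Sucnr1 and Il25 did not pass the minimum.

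**Figure D1:**
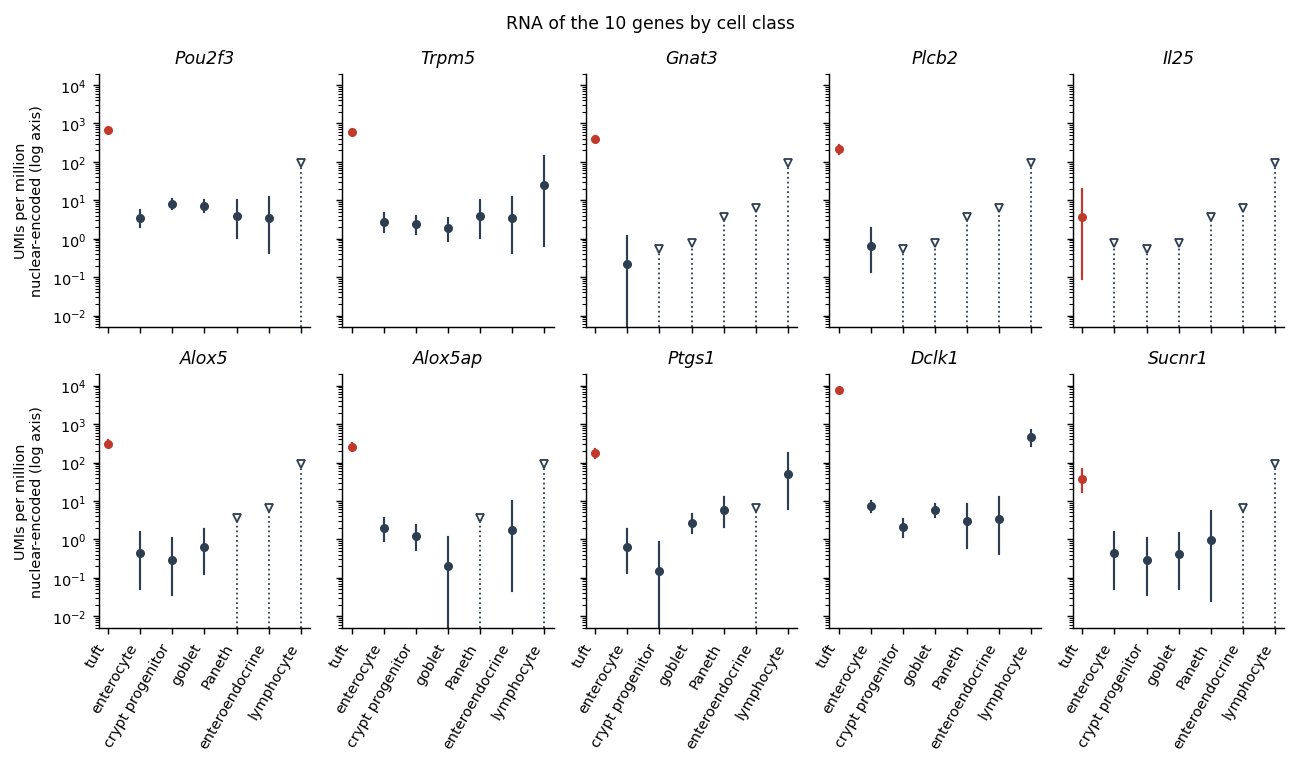
RNA of each of the 10 genes (UMIs per 1000000 nuclear-encoded UMIs, log axis) in tuft-like cells (red) and the 6 other named classes (dark), with exact Poisson 95% intervals; open triangles mark classes with no UMI and stand at the upper end of that interval. Pou2f3, Trpm5, Gnat3, Plcb2, Alox5, Alox5ap, Ptgs1 and Dclk1 are highest in tuft-like cells, while Il25 rests on 1 UMI.

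Pou2f3, the lineage's transcription factor, had 190 UMIs in tuft-like cells, a level of 689 per 1000000 (595 to 795). It was at 8.01 (6.02 to 10.5) in crypt progenitor-like cells and 7.21 in goblet-like cells (5.02 to 10.0). Paneth-like cells were at 3.89 (1.06 to 9.97), enteroendocrine-like cells at 3.47 (0.420 to 12.5) and enterocyte-like cells at 3.43 (1.96 to 5.57). The gene had no UMI in lymphocyte-like cells, whose small total allows up to 75.1, taking 3 UMIs as the limit for a count of 0 (the exact 95% interval ends at 92.4). Tuft-like cells thus stood far above the rest, at a log2 ratio of 6.97 (6.63 to 7.31). Among the other classes, neighbours in this order had overlapping intervals, while the crypt progenitor-like interval lay above the enterocyte-like one.

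The succinate receptor Sucnr1 was sparse, with 10 UMIs in 9 of 99 tuft-like cells and 9 UMIs in all 9773 other cells. Its level was 36.3 (17.4 to 66.7) in tuft-like cells and at most 0.974 (0.0246 to 5.42), in Paneth-like cells, among the other classes with a UMI. The ratio was 86.3-fold (31.5 to 240.2), and it is not counted among the calls because the sum of 19 UMIs is under the minimum.

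Gnat3, gustducin, had 109 UMIs in tuft-like cells and 2 elsewhere, 1 of them in an enterocyte-like and 1 in an unnamed cell. Its level was 396 (325 to 477) against 0.214 (0.00542 to 1.19) in enterocyte-like cells, and the ratio to all other cells was 12.05 on the log2 scale (10.16 to 15.11). For classes with no Gnat3 UMI the ratio has only a lower limit, the lower end of its exact interval. It was 710.6-fold against crypt progenitor-like, 511.5-fold against goblet-like and 108.3-fold against Paneth-like cells. Taking 3 UMIs per class as the limit that a count of 0 allows, the ratios were 889-fold, 640-fold and 135-fold in that order. Plcb2, the phospholipase that acts next in the cascade, had 59 UMIs in tuft-like cells (214, 163 to 276) and 3 elsewhere, all in enterocyte-like cells, a log2 ratio of 10.58 (8.96 to 12.90). Both genes were thus nearly absent from the counts of every other class.

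Trpm5, the calcium-gated channel, was at 602 (514 to 701) in tuft-like cells. In the other epithelial classes it lay between 1.85 (0.848 to 3.52) in goblet-like and 3.89 (1.06 to 9.97) in Paneth-like cells, and these intervals overlapped one another. Its log2 ratio to all other kept cells was 8.04 (7.57 to 8.53).

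Il25 gave 1 UMI in the whole set of kept cells, in a tuft-like cell that also held UMIs of Dclk1, Trpm5, Gnat3, Plcb2, Alox5, Alox5ap and Ptgs1. The level was 3.63 (0.0919 to 20.2), and the other 9773 cells, and the 2491 barcodes left out by the filters, held none. At this depth a difference in Il25 RNA between classes was not detectable. Its promoter, described below, gave a different picture.

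The leukotriene genes had few UMIs outside tuft-like cells. Alox5 was at 308 (246 to 381) in tuft-like cells and at most 0.618 (0.128 to 1.81) in another class with a UMI, the goblet-like cells, with a log2 ratio of 9.52 (8.53 to 10.70) to all other cells. Alox5ap, which presents arachidonic acid to Alox5, was at 250 (195 to 317) and at 1.93 (0.882 to 3.66) in enterocyte-like cells, a log2 ratio of 7.63 (6.97 to 8.33).

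Ptgs1, cyclooxygenase 1, was at 174 (128 to 231) in tuft-like cells, with a log2 ratio of 7.22 (6.49 to 7.98). Unlike the leukotriene genes it had most of its other UMIs in secretory cells, 13 in goblet-like (2.68, 1.43 to 4.58) and 6 in Paneth-like cells (5.84, 2.14 to 12.7), against 3 in enterocyte-like cells (0.643, 0.133 to 1.88). The goblet-like and Paneth-like intervals overlapped, the Paneth-like interval lay above the enterocyte-like one, and the goblet-like interval overlapped it. In lymphocyte-like cells it was at 50.1 (6.07 to 180.9), from 2 UMIs of 1 cell.

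Dclk1, the marker kinase, had 2126 UMIs in tuft-like cells, a level of 7714 (7390 to 8049). Enterocyte-like cells were at 7.28 (5.04 to 10.2) and goblet-like cells at 5.77 (3.83 to 8.34). Enteroendocrine-like cells followed at 3.47 (0.420 to 12.5), Paneth-like cells at 2.92 (0.602 to 8.54) and crypt progenitor-like cells, lowest, at 2.08 (1.14 to 3.48). Neighbours in this order had overlapping intervals, and the crypt progenitor-like interval lay below the enterocyte-like one. Of the 28 goblet-like UMIs, 1 cell held 10 and another 5, with doublet scores of 0.235 and 0.183. Of the 34 enterocyte-like UMIs, 1 cell held 5. The counting intervals do not cover this spread between cells. The ratio to all other kept cells was 10.45 on the log2 scale (10.18 to 10.73). Lymphocyte-like cells were at 451 (267 to 712), from 18 UMIs that all came from 1 cell, the same one that held the 2 Ptgs1 UMIs. In this class the UMIs of the tuft markers Avil, Sh2d6, Rgs13, Nebl and Kctd12 also came from 1 cell for each gene. Those of Inpp5j, Cd300lf, Fyb, Ptpn6, Lrmp and Vav1 came from 2 or more. Whether a tuft-like cell was placed in this class was not tested.

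Taken class by class, 7 of the 8 genes were higher in tuft-like cells than in each of the 6 other named classes. The same held for 156 (1.04%) of the 14938 genes that passed the minimum against all other kept cells. Against lymphocyte-like cells only 3819 genes passed the minimum, so most of the 14938 could not be called against every class. All 8 were higher than in enterocyte-like, crypt progenitor-like, goblet-like, Paneth-like and enteroendocrine-like cells taken singly, where 23.1%, 8.77%, 11.5%, 22.9% and 10.5% of genes tested were, and 7 of 8 than in lymphocyte-like cells (8.59%). Most of the 8 had few or no UMIs in the other class and passed the minimum through the tuft-like cells, so these counts describe the levels above and add no support to them. The exception was Ptgs1, which reached a log2 ratio of 1.80 (-0.13 to 4.88) against lymphocyte-like cells. Without the 1 lymphocyte-like cell that held Dclk1 and Ptgs1, an alternative added after seeing the data, the count was 8.

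Markers of other cell types were examined in the 99 tuft-like cells, since the sorted suspension could hold them. Enterocyte, goblet and Paneth marker lists stood at a summed 2605, 3324 and 2362 per 1000000, against 26906, 55149 and 182092 in their own classes. The stem list was at 2685 against 5183 in crypt progenitor-like cells, and the cycling list at 744 against 2495.5. Of 13 lymphocyte markers, 11 were at 0, Cd3e, Cd8a and Nkg7 among them, and the summed 229 per 1000000 came almost wholly from Ptprc, which encodes CD45 (60 UMIs in 26 cells). The same summed level was 7.79 to 15 in the other epithelial classes and 5309 in lymphocyte-like cells. Of 9 mast cell markers only Kit was seen (72 UMIs in 45 cells), with Cpa3 and Mcpt1 at 0, and the list stood at 261 against 5.57 to 212 in the other epithelial classes. Whether RNA of other cells had a part in the levels above was not tested. The B or plasma cell list (6 genes) and the fibroblast list (5 genes) were at 0. Myeloid markers gave 4 UMIs, with Lyz2 and Csf1r at 0, and neuronal or glial markers 1. Endothelial markers gave 7 UMIs, all of Tek, at 25.4 (10.2 to 52.3) against 0 to 20.8 in the other epithelial classes. Of 14 enteroendocrine markers 7 were detected, at a summed 76.2 against 31.2 to 101 in the epithelial classes other than enteroendocrine-like.

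Related genes were taken from lists of the pathway. Of 86 listed genes, 52 had at least 20 UMIs, 21 were higher in tuft-like cells and 8 lower, with a median log2 ratio of 1.52. Over all genes tested 7.87% were higher and 8.79% lower, with a median of 0.19, and the counts of each list below stand beside those shares. Of the genes named from the lists, Gng13, Vmn2r26, Spib and Chat had under 20 UMIs in the other cells and passed the minimum only through the tuft-like cells. In the transduction list, 5 of 8 genes tested were higher and 2 lower (median 2.57). The largest ratios were those of Gng13, the gamma subunit that pairs with gustducin (6.47, 5.34 to 7.62), the calcium release channel Itpr2 (5.25, 5.08 to 5.42) and Plcg2 (4.77, 4.55 to 5.0). Itpr3, the channel of taste cells, was lower (-0.68, -1.44 to -0.02), as was Trpm4, the nearest relative of Trpm5 (-1.22, -2.0 to -0.54). Against all other kept cells together, members of the same family thus differed in direction, with Itpr2 and Trpm5 higher and Itpr3 and Trpm4 lower. Taken class by class, Itpr3 was called lower only against crypt progenitor-like, goblet-like and enteroendocrine-like cells. Trpm4 was called lower only against enterocyte-like and goblet-like cells.

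Among 17 receptors only 6 passed the minimum, 3 of which were higher and none lower (median 1.81). Vmn2r26, a vomeronasal-type receptor from a large family whose reads can be hard to assign, had 19 UMIs in tuft-like cells and 2 elsewhere (9.53, 7.48 to 12.67). The sweet and umami subunit Tas1r3 rested on 3 UMIs (3.11, 0.75 to 4.81) and the GABA-B subunit Gabbr1 on 7 (1.96, 0.62 to 3.04).

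Of 16 eicosanoid genes, 11 were tested, 4 were higher and 3 lower (median 1.21). Hpgds, which makes prostaglandin D2 (6.95, 6.41 to 7.51), Ltc4s, which makes leukotriene C4 (5.57, 5.06 to 6.07), and the phospholipase Pla2g4a, which frees arachidonic acid (3.43, 3.21 to 3.64), were the highest. Lta4h, the enzyme of leukotriene B4 synthesis, was lower (-1.22, -1.90 to -0.62), as was the prostaglandin-degrading Hpgd (-1.31, -2.27 to -0.50). Ptgs2, the inducible cyclooxygenase, had 2 UMIs in tuft-like cells and 1 elsewhere, too few to call.

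Of 12 regulators, 8 were tested and 6 were higher, none lower (median 2.28), led by Spib (7.62, 6.66 to 8.67), Runx1 (6.62, 6.41 to 6.84) and 1810046K07Rik, an older symbol of the Pou2f3 coactivator Pou2af2 (6.0, 5.51 to 6.49). In the type 2 list 2 of 7 tested were higher and none lower (median 0.34), the IL-25 receptor subunit Il17rb (5.32, 4.41 to 6.18) and the IL-13 receptor subunit Il13ra1 (2.50, 2.25 to 2.73). In the acetylcholine list 1 of 4 was higher and 1 lower (median -0.11). Chat, which makes acetylcholine, had 44 UMIs in tuft-like cells and 3 elsewhere (10.15, 8.51 to 12.49), and the cholinesterase Bche was lower (-1.69, -2.82 to -0.76).

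Among 24 paralogs of the genes, 11 were tested, 1 was higher, a share near that of all genes, and 4 were lower (median 0.72). Ltc4s, also on the eicosanoid list, was the one higher. The phospholipase paralogs Plcb3 (-1.72, -2.48 to -1.06) and Plcb1 (-1.36, -1.89 to -0.89) were the lowest. Plcb1 was high in goblet-like and Paneth-like cells, at 1144 (1114 to 1174) and 864 (808 to 922) per 1000000. Tuft-like cells were at 127 (88.5 to 177), the reverse of Plcb2 among these classes only. The lower call of Plcb1 against all other kept cells rested mainly on goblet-like and Paneth-like cells and does not describe each other class.

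Of the 10 genes, 8 had a called peak inside or within 1000 bases of the start site interval in the feature list. None was found there for Gnat3 and Sucnr1. All 8 held more promoter fragments in tuft-like cells than in all other kept cells, where 10.2% of 23162 genes with promoter peaks did. The median log2 ratio was 3.37 over the 8 and 0.22 over all promoters tested. The counts behind these ratios were small, 9 to 47 tuft-like fragments per gene, and the calls are against all other kept cells together. Against lymphocyte-like cells no promoter of these genes was called. Plcb2, Alox5 and Ptgs1 were under the minimum against Paneth-like and against enteroendocrine-like cells.

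**Figure D2:**
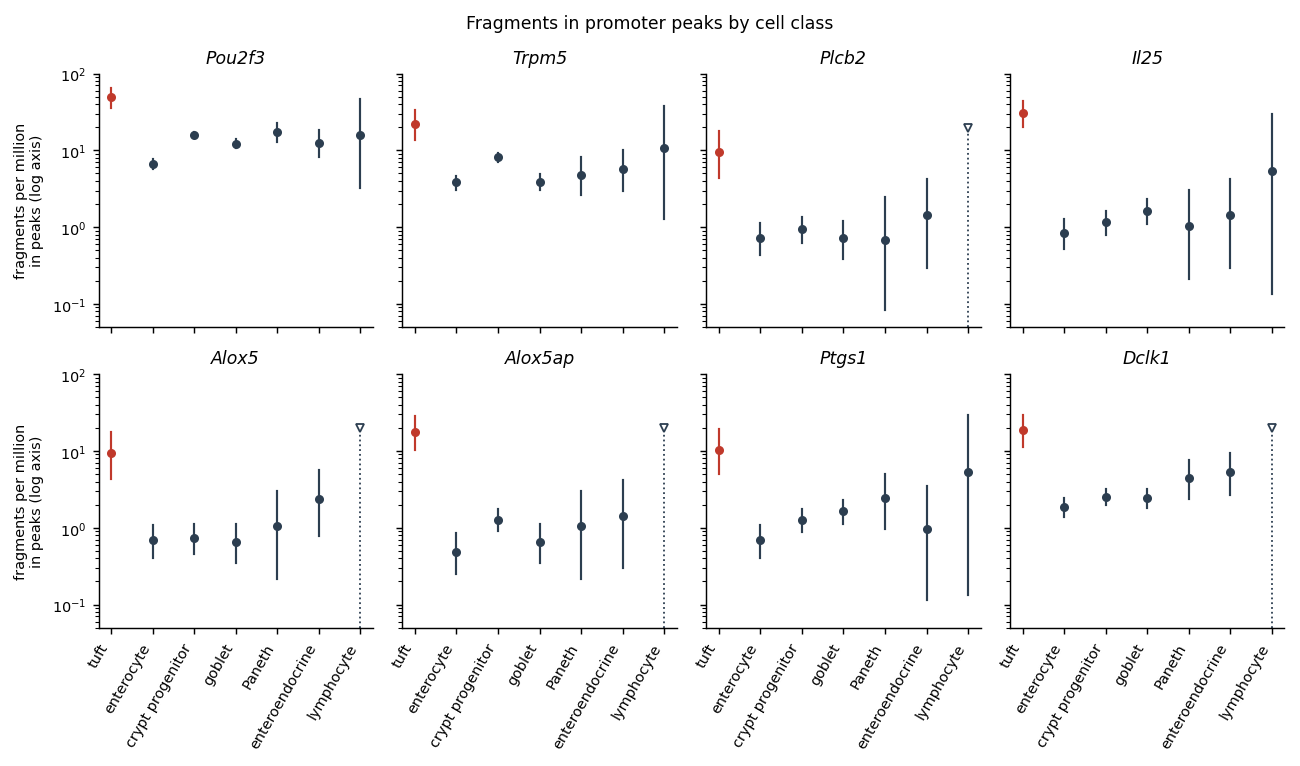
Fragments in promoter peaks of 8 genes (per 1000000 fragments in peaks, log axis) in tuft-like cells (red) and the 6 other named classes (dark), with exact Poisson 95% intervals; open triangles mark classes with no fragment, at the upper limit. Il25 stands at 30.3 in tuft-like cells, while Pou2f3 also holds fragments in other classes, at 6.72 in enterocyte-like and 15.9 in crypt progenitor-like cells.

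The Il25 promoter held 29 fragments in tuft-like cells, a level of 30.3 (20.3 to 43.5). Goblet-like cells were at 1.63 (1.11 to 2.3), crypt progenitor-like cells at 1.15 (0.789 to 1.61) and enterocyte-like cells at 0.845 (0.523 to 1.29), and 3 or fewer fragments were seen in Paneth-like, enteroendocrine-like and lymphocyte-like cells. This was a 24.5-fold ratio to all other kept cells (15.7 to 37.1), a log2 of 4.61 (3.97 to 5.21), at a gene with 1 RNA molecule. Its stronger peak, chr14:54931210-54932106 in mm10, had 20 fragments in tuft-like cells and 64 in all others (30.9-fold, 17.7 to 51.7) and does not overlap the start, and the peak over the start, chr14:54932582-54933372, was 16.8-fold higher (7.28 to 34.3).

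The eicosanoid promoters had log2 ratios of 4.36 (3.51 to 5.12) for Alox5ap from 17 tuft-like fragments, 3.67 (2.48 to 4.67) for Alox5 from 9 and 3.21 (2.11 to 4.14) for Ptgs1 from 10. The Alox5 peak at chr6:116460579-116461464 and the Ptgs1 peak at chr2:36230034-36230944 cover the sequences printed above. The Alox5ap peak lay at chr5:149264606-149265525. The promoter peak of Plcb2 at chr2:118728759-118729546 was 11.6-fold higher (5.09 to 23.1) and begins beyond the printed window.

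The feature list gives Dclk1 a start site interval of 219609 bases. All peaks inside it, wherever the starts lie, gave a log2 ratio of 2.95 (2.17 to 3.64). They include chr3:55354516-55355382 (5.04-fold, 1.60 to 12.2) and chr3:55373429-55374252 (not called), inside the interval and tied to no known start. The peak at the upstream start, chr3:55242223-55243092, which covers part of the printed sequence, was 16.5-fold higher in tuft-like cells (7.85 to 31.4). No peak was called at the window of the downstream RefSeq start, chr3:55461478-55461727. Using peaks at the ends of the interval alone, an alternative chosen after seeing the data, gave 4.04 (2.97 to 4.97).

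Pou2f3 and Trpm5, with RNA log2 ratios of 6.97 and 8.04, had promoter log2 ratios of 2.07 and 1.96. Pou2f3 was at 49.1 (36.1 to 65.3) in tuft-like cells and 17.3 (12.8 to 22.7) in Paneth-like cells, with a log2 ratio to all other cells of 2.07 (1.61 to 2.49). Crypt progenitor-like cells were at 15.9 (14.5 to 17.4), enteroendocrine-like cells at 12.5 (8.14 to 18.3), goblet-like cells at 12.2 (10.7 to 13.9) and enterocyte-like cells at 6.72 (5.74 to 7.82). Its promoter peaks thus held fragments in every epithelial class, and the enterocyte-like interval lay below all the other epithelial ones. Its peak with most tuft-like fragments, chr9:43205389-43206188, was 5.83-fold higher (3.86 to 8.47). Trpm5 was at 21.9 (13.6 to 33.5) in tuft-like and 8.16 (7.15 to 9.27) in crypt progenitor-like cells, a log2 ratio of 1.96 to all others (1.26 to 2.59). That call rested on a peak 0.556 kb from the start, chr7:143093723-143094447 (5.88-fold, 3.24 to 9.89). With the peak over the start alone the ratio was 1.08 (-0.38 to 2.22).

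Inside or within 50000 bases of the start site intervals, 142 peaks were called around the 10 genes, the promoter peaks described above included. Of these 32 were higher in tuft-like cells (22.5%) and 4 lower, where 5.74% of all 146116 peaks tested were higher and 4.61% lower. The higher peaks were unevenly spread, with 5 of 10 at Il25 (50.0%) and 3 of 7 at Alox5 (42.9%), while 3 of 29 at Trpm5 (10.3%), 1 of 11 at Gnat3 (9.09%) and 1 of 13 at Sucnr1 (7.69%) were near the share of all peaks.

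**Figure D3:**
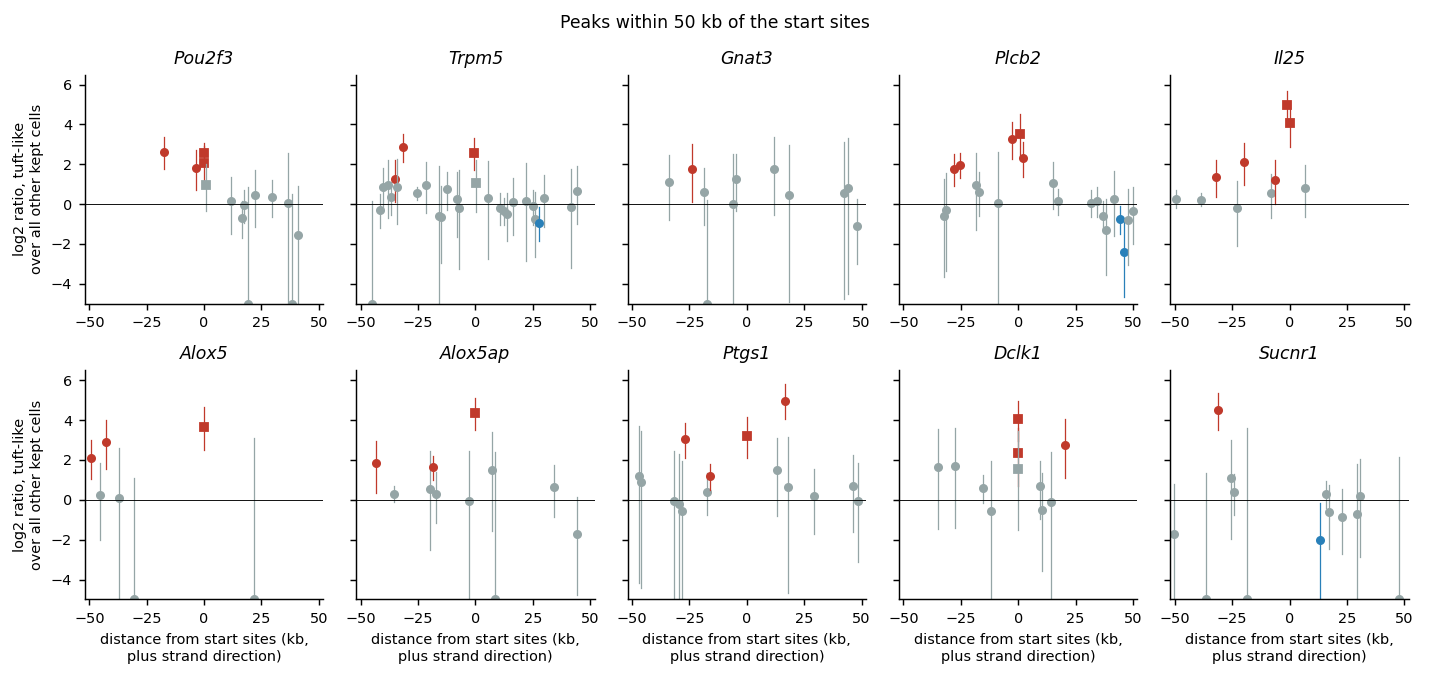
Log2 ratio of fragments in tuft-like over all other kept cells for each peak within 50 kb of the start site intervals. The x axis gives kb along the plus strand, squares are promoter peaks, circles other peaks, and vertical lines exact 95% counting intervals. Red peaks are higher and blue ones lower in tuft-like cells, grey ones are not called, and peaks with no tuft-like fragment sit at the foot of the axis; the distal Ptgs1 peak 16.5 kb to the right and the Sucnr1 peak 31.2 kb to the left of its start are the highest of their genes.

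Some of the highest ratios lay away from promoters. Sucnr1, with no promoter peak, had a peak 31.2 kb from its start, chr3:60050272-60051135, with 13 fragments in tuft-like cells and 57 in all others (22.5-fold, 11.3 to 41.7). Ptgs1 had one 16.5 kb from its start, chr2:36246486-36247277, with 16 and 51 fragments (31.0-fold, 16.5 to 55.3). Its own promoter was at 9.24-fold (4.31 to 17.7). These intervals overlap, and the distal peak was picked as the highest of 15, so no order is read from them. At Trpm5 the highest ratio was at chr7:143062494-143063401, 31.7 kb away (7.27-fold, 4.37 to 11.4), and at Pou2f3 at chr9:43188061-43188908, 17.3 kb away (6.10-fold, 3.36 to 10.3). Gnat3 had a single higher peak at 23.8 kb, chr5:17938324-17939247, on 5 fragments (3.41-fold, 1.09 to 8.14), where the level was 5.22 in tuft-like and 3.38 in enterocyte-like cells, from 84 fragments. Which gene each distal peak serves was not tested.

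Cell by cell, UMIs of Dclk1 were seen in 88.9% of the 99 tuft-like cells, of Pou2f3 in 74.7% and of Trpm5 in 69.7%. Alox5 was seen in 38.4%, Plcb2 in 37.4%, Alox5ap in 35.4% and Ptgs1 in 34.3%, Gnat3 in 17.2% and Sucnr1 in 9.09%. The same shares in enterocyte-like cells, which should lack these genes, were 0.742% for Dclk1, 0.424% for Pou2f3, 0.345% for Trpm5 and at most 0.239%, for Alox5ap, for the others, at a median of 801 nuclear-encoded UMIs against 2110. With every cell thinned to 500 nuclear-encoded UMIs (96 tuft-like and 3060 enterocyte-like cells deep enough) the shares were 77.1% and 0.359% for Dclk1, 32.3% and 0.294% for Pou2f3 and 21.9% and 0.196% for Trpm5. Thinned tuft-like shares were 17.7% for Alox5, 12.5% for Plcb2, 11.5% for Alox5ap, 8.33% for Gnat3, 5.21% for Ptgs1 and 3.12% for Sucnr1. Ptgs1, above Gnat3 before thinning, was then seen in 5 cells against 8. That was a single random draw, so no order is read from it.

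Tuft-like cells often held UMIs of several of the genes, and whether pairs met beyond their separate shares was not tested. A tuft-like cell held UMIs of a median of 4 and up to 8 of the 10 genes, and 73 of 99 cells (73.7%) held at least 3. Among the 9773 other cells 4 did (0.0409%), 3 goblet-like ones with doublet scores of 0.235, 0.0495 and 0.183 and 1 enterocyte-like one with 0.129, beside a tuft-like median of 0.0607. After thinning, 23 of 96 tuft-like cells held at least 3 of the genes, and 61 held at least 2, as did 1 of 8321 other cells.

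**Figure D4:**
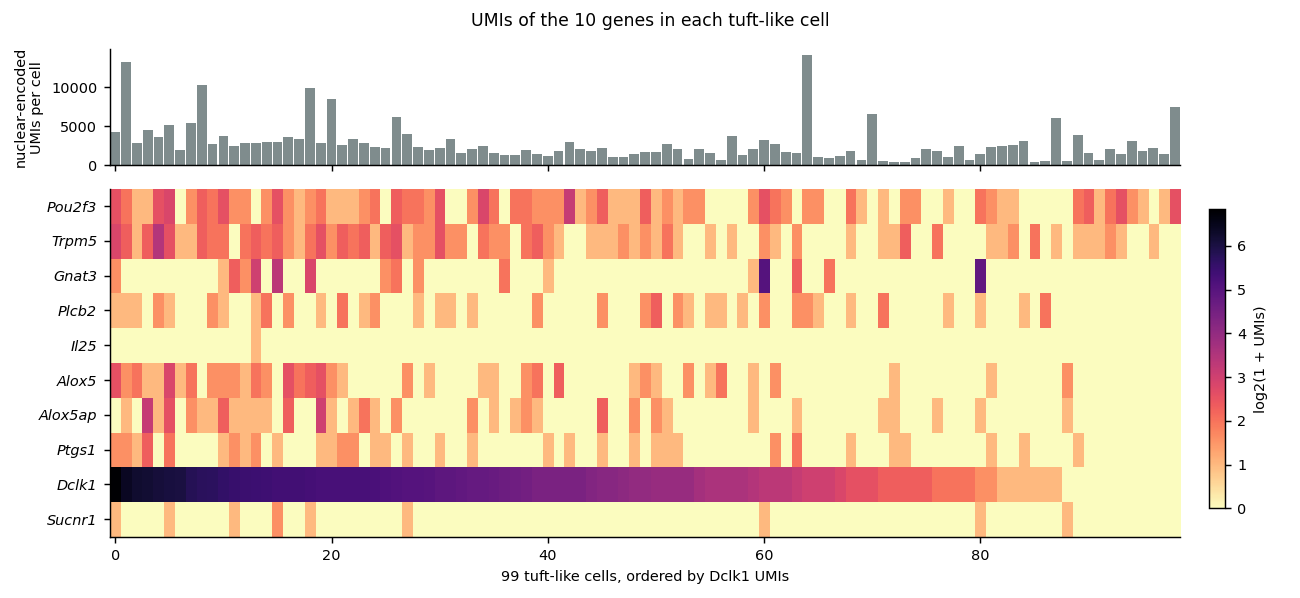
UMIs of the 10 genes, as log2(1 + UMIs), in each of the 99 tuft-like cells ordered by Dclk1 UMIs (lower panel), with the nuclear-encoded UMIs of each cell as bars (upper panel). Dclk1 runs from 113 UMIs to 0, Gnat3 is seen in 17 cells, and Pou2f3 is still seen in 9 of the 11 cells with no Dclk1 UMI.

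Gnat3 was the most unevenly spread of the genes with over 10 UMIs in tuft-like cells. Its 109 UMIs came from 17 cells, and 2 cells held 59 of them (54.1%), whereas the 2 highest cells held 7.37% of Pou2f3 and 9.22% of Dclk1 UMIs. All 17 cells also held Dclk1. The 17 cells were set beside the other 82, at medians of 2526 and 2060 nuclear-encoded UMIs, for genes chosen after their values were seen and with counting intervals only. Sucnr1 had 7 UMIs in 6 of the 17 cells and 3 UMIs in 3 of the 82, a 10.0-fold ratio (log2 3.32, 1.19 to 5.90). Ptprc was at 710 against 103 per 1000000 (log2 2.79, 2.0 to 3.60) and Chat at 403 against 103 (1.97, 1.04 to 2.89), and the transcription factor Sox4 was lower in the 17 (-1.90, -3.56 to -0.62). Pou2f3 (0.19, -0.35 to 0.70), Plcb2 (-0.37, -1.58 to 0.66), Alox5 (0.20, -0.64 to 0.97) and Alox5ap (-0.15, -1.18 to 0.77) had intervals that included no change, as did Trpm5 (0.54, -0.0 to 1.05) and Ptgs1 (0.82, -0.19 to 1.76). Summed Dclk1 UMIs were higher in the 17 cells, at 10490 against 7067 per 1000000 (0.57, 0.43 to 0.71). The 2 cells with most Gnat3 UMIs, 32 and 27, held 9 and 2 Dclk1 UMIs among 3263 and 1430 nuclear-encoded ones. Another of the 17 cells held 113 of their 547 Dclk1 UMIs. The counting interval does not cover this spread between cells, so no joint rise of Gnat3 and Dclk1 is read from it. CD45, the product of Ptprc, was among the stained proteins, and how the unstated gate bears on the number of these cells was not tested.

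The 11 tuft-like cells with no Dclk1 UMI had a median of 1814 nuclear-encoded UMIs against 2240 in the other 88, and median doublet scores of 0.109 and 0.0555. Pou2f3 was seen in 9 of the 11, at 961 against 661 per 1000000 (log2 of cells with over cells without Dclk1 -0.54, -1.15 to 0.13). Trpm5 was seen in 6, Alox5, Alox5ap, Ptgs1 and Sucnr1 in 1 each, and Plcb2, Gnat3 and Chat in none. The genes named here were chosen after their values were seen. In the same direction of ratio, Alox5 was at 2.11 (0.22 to 5.18), Runx1 at 1.82 (0.99 to 2.78) and Itpr2 at 1.92 (1.06 to 2.93), all higher where Dclk1 was seen. The naming marker Avil was higher there too (1.51, 0.26 to 3.16). Hpgds (-0.56, -1.53 to 0.57), Ltc4s (0.85, -0.77 to 3.18) and Ptgs1 (2.29, -0.26 to 7.63) were among those with intervals that included no change. Sox4 was lower where Dclk1 was seen, at 1460 per 1000000 in the 11 cells and 188 in the 88 (-2.95, -3.60 to -2.3). The part of doublets in these values was not tested.

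Outside tuft-like cells Pou2f3 and Dclk1 did not keep their ratio. There were 11.2 Dclk1 UMIs for each Pou2f3 UMI in tuft-like cells but 0.259 in crypt progenitor-like cells, from 14 and 54 UMIs. Enterocyte-like cells had 2.12 and goblet-like cells 0.800. The 54 Pou2f3 UMIs of crypt progenitor-like cells came from 40 cells (1.87%, 1.34 to 2.54%), against 0.424% (0.243 to 0.688%) of enterocyte-like cells. Thinned to 500 UMIs, the shares were 0.430% and 0.294%, on 9 cells each, and no order can be read from them. In goblet-like cells 9 of the 35 Pou2f3 UMIs came from 1 cell. That cell also held 5 of their 28 Dclk1 UMIs, and another held 10, so the goblet-like ratio rests on few cells.

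Other genes were ranked by how much of their level lay in tuft-like cells, as the tuft-like level divided by the sum of the levels of the 7 named classes. The 10 genes ranged from 74.6% for Ptgs1, 93.9% for Trpm5, 94.2% for Dclk1 and 94.5% for Sucnr1 to 96.4% for Pou2f3, 98.0% for Alox5ap, 99.6% for Alox5, 99.7% for Plcb2 and 99.95% for Gnat3, leaving out Il25 with its 1 UMI. The shares of Ptgs1, Dclk1 and Trpm5 rest on lymphocyte-like levels of 50.1, 451 and 25.0, which came from 2, 18 and 1 UMIs, the first and second of them in the same cell, so no order is read from them. Among 1331 genes with at least 50 tuft-like UMIs outside the members and lists, those most like them included Itprid1 (99.8%), Adamts12 (99.5%), Bmx (99.2%), Sh2d7 (99.1%), Pygl (98.9%), Dgki (98.6%) and Adgrb3 (97.9%). Bmx was a naming marker, and all of these could take part in the clustering, so their ranks are a description. Pygl, the liver-type glycogen phosphorylase, and Dgki, a diacylglycerol kinase, had promoter log2 ratios of 3.20 and 3.37, while Adgrb3 was at 0.44.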

How the data were processed

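The values are raw counts that the authors deposited: the matrix lists UMIs of 55401 genes beside 146191 ATAC peaks over 12363 barcodes, per the file headers from Cell Ranger ARC 2.0.2, with mm10 named in the submitters' processing notes. Gene start sites and peak coordinates came from the deposited feature list. Of the peak values above 0, 87.6% were even, so each was halved and rounded up to fragments. The members and lists were chosen with earlier results of these data known.

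Cells had at least 500 UMIs, 300 genes and 1000 peak counts (12163, 10073 and 12072 barcodes passed each, 9872 all). Scrublet (scanpy 1.11.5) marked 0 of 9872 cells, so it has not worked and doublets remain. RNA of 1500 variable genes, without the 10 members, 86 listed genes, mtDNA genes and Lars2, was reduced to 30 components and clustered (15 neighbours, Leiden resolution 1, leidenalg 0.10.2). Clusters were named on the median log2 ratio of a marker list against other cells, with 5 per 1000000 added. That ratio had to reach 0.4 and lead the next lineage by 0.4 on at least 3 detected markers. A stricter rule held for shallow clusters, with median nuclear-encoded UMIs more than 3-fold below the overall median. For these, the 10 leading genes had to include at least 2 markers from the list. By that rule 1 cluster of 917 cells stayed unnamed, with a median of 433 UMIs and 0 such markers. Its enterocyte score of 1.086, against 0.65 for the next lineage, met the other conditions. Crypt progenitor-like joins stem and cycling clusters.

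Summed UMIs per 1000000 nuclear-encoded UMIs carry exact Poisson intervals, ratios exact conditional binomial (Clopper-Pearson) intervals, and shares exact binomial ones, all at 95%. A gene was called at 1.5-fold or more, with an interval excluding no change and at least 20 UMIs or fragments. The rule was tested on simulated counts. Promoter peaks overlap the start site interval widened by 1000 bases. Named beside the members were the 3 highest called genes and up to 2 lowest called lower in each list, the 8 genes most like the members (1 of them is not reported here), and for each member the promoter peak with most tuft-like fragments and the highest peak within 50000 bases. Promoter sequences are RefSeq's. The alternatives tried were other clusterings, cell filters, scales, minimums, fold limits and promoter windows.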

Additional observations from a re-analysis of the deposited data

How the results depend on the processing

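No paired analysis was possible because 1 animal gave 1 library of each kind, and no replicate could be left out. Tuft-like cells numbered 85 (835 cells with the highest doublet scores removed) to 106 (clustering on all genes, or on ATAC peaks, which shared 82 cells with the 99 from RNA). Members higher than in all other kept cells numbered 8 in every alternative but the one with no minimum of UMIs, which gave 10. Members higher than in every named class numbered 7 or 8. Promoters higher numbered 8, or 6 with peaks over the start site intervals alone. Listed genes higher ranged from 18 (doublet scores) to 28 (no minimum). None of the 63 RNA ratios and 87 promoter ratios changed direction; 6 and 3 left the interval reported for them. Clustering on ATAC peaks lowered the log2 RNA ratio of Gnat3 to 9.50, of Alox5 to 8.51 and of Dclk1 to 8.49, and the cause was not tested. A promoter window of 2500 bases lowered Alox5ap to 3.26. Depth limits Il25, Sucnr1 and every comparison with the 27 lymphocyte-like cells.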

Other observations

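The 2491 barcodes left out by the filters had a median of 262 nuclear-encoded UMIs. Of these, 41 held a UMI of at least 1 of the 10 genes and 2 held at least 3, with 108 UMIs of the 10 genes in all, 69 of them Dclk1. Among the 1846 unnamed cells, 40 held a UMI of at least 1 of the genes and none held 3 or more. Their Pou2f3 level was 1.99 per 1000000 (0.801 to 4.10), and 19 Dclk1 UMIs came from 18 cells.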
